A study of Rattus norvegicus with 12 samples.

Results

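The genes described here are those of follistatin, activin and the transforming growth factor beta (TGF-beta) pathway in CC531, a rat colon carcinoma cell line. The members were 9 named genes, and every probe set whose annotation gave one of them as its single gene was taken. Of the 9 genes, 8 had a probe set, out of 4736 genes named on the array, and together they had 12 probe sets out of 8740. Tgfbr2, the type II TGF-beta receptor, had none. Fst and Smad2 had 2 and 3 probe sets, Inha had 2, and Inhba, Tgfb1, Bmp4, Acvr1 and Smad3 had 1 each.

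Cells were treated with 4.5 mM butyrate for 2, 6, 12, 16 and 24 h, treated with 3 mM aspirin for the same 5 times, or left untreated for 2 and 24 h. Each of the 12 conditions was 1 array, so there were 5 butyrate, 5 aspirin and 2 untreated arrays, all of the same line and with no vehicle named for the untreated cells. Butyrate is a short-chain fatty acid made by gut bacteria and an inhibitor of histone deacetylases, and aspirin is an inhibitor of the cyclooxygenases. The labels do not state whether cultures were separate. The p-values therefore reflect the spread among these arrays alone, which may be technical. In the comparisons with untreated cells, over all 12 arrays, that spread holds changes over the hours as well. The comparison between the drugs took the hour as a block, and the slopes fitted a line over the hours of each drug.

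Activins are dimers of inhibin beta subunits, and activins and TGF-beta bind pairs of type II and type I receptors that phosphorylate SMAD2 and SMAD3. These enter the nucleus with SMAD4 and control transcription, while bone morphogenetic proteins (BMPs) use a separate set of SMADs. Follistatin is a secreted glycoprotein that binds activin and keeps it from its receptors, and inhibins, which pair the alpha subunit with a beta subunit, oppose activin. In the colon epithelium TGF-beta signalling restrains growth, and parts of the pathway are often lost in colon tumours.

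Intensities below are the deposited linear probe set signals, some of which are negative. How the negative values arose is not stated in the labels. For log2 values, any intensity under 90.91 was raised to that floor, so a value "at the floor" has no further order. Of the 12 member probe sets, 11 passed the filter on dim probe sets and were tested. The exception was that of Bmp4, whose intensities were negative on every array (-195.0 to -37.7 with butyrate, -139.2 to -42.8 with aspirin, and -114.2 and -75.1 untreated). No level of this BMP ligand can be given from it. The epithelial markers present on the array, 6 of the 10 looked for, were bright (Krt8, a keratin, at 12225.1 to 16015.5 and Epcam at 8234.3 to 16911.3 over all arrays). Markers of other cell types were dimmer but not all at the floor. Of the fibroblast genes 5 of 6 on the array had a probe set with its median above the floor, among them Col1a1 (up to 1615.4) and Acta2 (1019.3 to 4419.8 on one probe set, while another was at the floor on all 12 arrays). Of the blood and immune genes 2 of 3 did, Ptprc (median 249.9 on one of its 3 probe sets, the others at the floor on all arrays) and Csf1r (100.4 to 194.6). Of the endothelial genes 1 of 3 did, Pecam1 (median 157.4), and Vwf was at the floor on all arrays. The part of these markers in the results was not tested.

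The members were chosen by name around Fst, which had itself been selected on its butyrate minus untreated difference in these arrays. The members' butyrate values, against untreated and against aspirin, are therefore given as a description, without p-values for single members. Counts of calls in these comparisons are given only beside the share over all probe sets, and nothing is read from them. Promoters of 7 of the 9 members were matched in RefSeq (GRCr8), and those of Fst and Acvr1 were not analysed here. Those of the other 2 members that lay below both untreated arrays on each butyrate array, Inhba and Smad2, are shown as the 250 bases before the start, 5′ to 3′ on the gene's strand. Capitals mark 4 searched motifs on either strand: the GC box GGGCGG, the SMAD-type box CAGAC, the cyclic AMP-type element TGACG and the TATA-type box TATAAA.
Inhba, chr17:53804509-53804758, minus strand: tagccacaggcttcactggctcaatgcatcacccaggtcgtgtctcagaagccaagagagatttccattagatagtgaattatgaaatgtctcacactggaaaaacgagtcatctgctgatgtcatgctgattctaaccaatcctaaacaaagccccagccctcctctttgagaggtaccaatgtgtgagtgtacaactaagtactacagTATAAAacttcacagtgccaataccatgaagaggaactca
Smad2, chr18:72125329-72125578, plus strand, the second of its listed starts: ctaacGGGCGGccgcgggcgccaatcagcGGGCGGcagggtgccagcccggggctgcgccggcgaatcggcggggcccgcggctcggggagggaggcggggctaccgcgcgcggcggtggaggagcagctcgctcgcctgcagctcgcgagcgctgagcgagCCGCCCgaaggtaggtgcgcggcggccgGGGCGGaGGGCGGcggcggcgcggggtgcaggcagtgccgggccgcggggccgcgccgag

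The Inhba sequence held 1 TATA-type box, and its GC content was 43.6%. The printed Smad2 sequence held 5 GC boxes, and its GC content was 82.8%. The stretch before the other listed Smad2 start overlaps only the first bases of the printed one. It held 1 GC box, the same box as the first in the printed sequence, and its GC content was 79.6%. Over all 33469 promoters of the same length the median GC content was 51.2%, 30.5% held a GC box and 12.9% a TATA-type box. Neither printed sequence held a CAGAC or TGACG match, which 42.9% and 18.2% of all promoters did. These are matches of letters, not known binding sites.

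Follistatin signal was far lower on the butyrate arrays than on any other. On the first Fst probe set the intensity was 734.1 after 2 h of butyrate, -23.5 after 6 h, -40.5 after 12 h, 238.2 after 16 h and 286.5 after 24 h. With aspirin it was 3396.9, 8896.5, 6339.1, 7960.6 and 8755.1 at the same hours, and in untreated cells 8056.6 at 2 h and 7153.5 at 24 h. Every butyrate array lay below every aspirin and untreated array, and the low point came at 6 and 12 h. The second Fst probe set, drawn from the same expressed sequence tag and so no independent measurement, read 513.9, 407.7, 293.7, 366.9 and 568.4 over the butyrate hours. It read 2020.6, 5601.8, 4748.8, 5091.8 and 5031.1 over the aspirin hours, and 5199.0 and 4633.9 in untreated cells. Its lowest butyrate value was again at 12 h, and the groups again did not overlap.

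**Figure D1:**
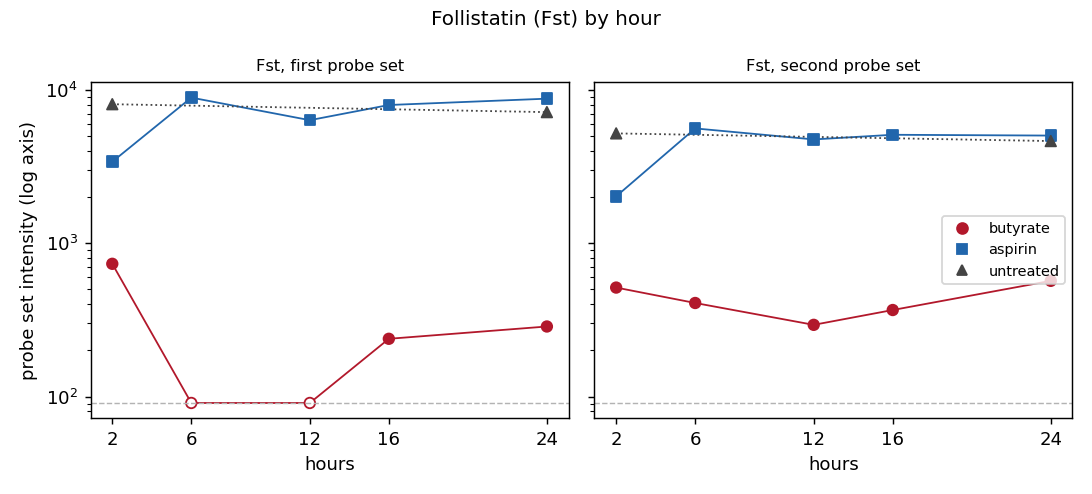
Intensity of the 2 Fst probe sets (log axis) by hours of treatment, 1 point per array, for butyrate (circles), aspirin (squares) and untreated cells (triangles); the dashed line is the floor of 90.91 and open circles are butyrate arrays below it. Every butyrate point lies below every other point, and the aspirin array at 2 h is the lowest of the aspirin arrays on both probe sets.

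The mean log2 difference of butyrate from untreated was -5.17 ± 0.65 (SE, 5 arrays and 2 arrays) on the first Fst probe set and -3.55 ± 0.36 on the second. Among 6118 tested probe sets these ranked 1 and 3 from the lowest difference. Fst had been selected on this difference, so the ranks only describe that selection. The size on the first probe set rested on the floor, since 2 of its 5 butyrate arrays were below it, and it ranged from -4.77 to -6.95 with a higher and a lower floor. On the second no array was at the floor. As a share of the untreated mean of log2 values, the second probe set stood at 10.5% after 2 h of butyrate, 8.31% after 6 h, 5.98% after 12 h, 7.48% after 16 h and 11.6% after 24 h. Follistatin was thus already low at the earliest hour measured, when the first probe set stood at 9.67%.

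Fst over the hours of a treatment was not used to choose it. With butyrate the fitted slope was -0.37 ± 0.30 log2 units per doubling of the hours on the first probe set (limma, adjusted p = 0.532) and -0.05 ± 0.14 on the second (adjusted p = 0.922). Neither passed, and without the 2 h butyrate array the signs turned to 0.90 (adjusted p = 0.193) and 0.20 (adjusted p = 0.866). With aspirin the slopes were 0.33 ± 0.30 (limma, adjusted p = 0.616) and 0.34 ± 0.14 (adjusted p = 0.208). They rested on the 2 h aspirin array, since without it they were -0.01 and -0.07. The difference between the butyrate and aspirin slopes did not pass either (limma, -0.70 ± 0.43, adjusted p = 0.452, and -0.39 ± 0.19, adjusted p = 0.340).

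Aspirin against untreated cells gave no change of Fst that passed the test. The mean log2 differences were -0.18 ± 0.65 on the first probe set (limma, adjusted p = 0.975) and -0.21 ± 0.36 on the second (adjusted p = 0.896). At 2 h, however, aspirin differed from untreated cells at that hour by -1.25 and -1.36 log2 units, and at 24 h by 0.29 and 0.12. These are differences of single arrays and were not tested. The untreated arrays themselves differed by -0.17 on each probe set (24 h minus 2 h), so the 2 h aspirin value lay further from its control than the controls lay from each other.

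Ordered by level on the second Fst probe set, the butyrate arrays came lowest, from 293.7 at 12 h to 568.4 at 24 h. The aspirin array at 2 h followed at 2020.6. The other 4 aspirin and the 2 untreated arrays lay close together between 4633.9 and 5601.8, and their order cannot be read, since the untreated pair spans 4633.9 to 5199.0 within that range. Likeness to this probe set was taken as Pearson correlation over the 12 log2 values, with each gene represented by its most correlated probe set. The 5 genes most like the second Fst probe set were Kctd15 (0.979), Rassf9 (0.975), Myc (0.958), Furin (0.951) and Tyms (0.944). These coefficients are a description: the 12 values fell into a low butyrate set and a high remainder, so they mostly reflect that division, and the first 3 and Tyms had 1 or more butyrate arrays at the floor. Furin encodes a protease known to cleave the precursors of TGF-beta family ligands, and Myc encodes a growth-promoting transcription factor. On its most correlated probe set Furin read 2631.5, 1876.2, 2344.3, 2288.1 and 3158.5 with butyrate. It read 4113.8, 5038.3, 4890.4, 4266.9 and 5257.7 with aspirin, and 4550.4 and 5114.1 untreated. On that probe set its butyrate arrays lay below all the others.

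**Figure D2:**
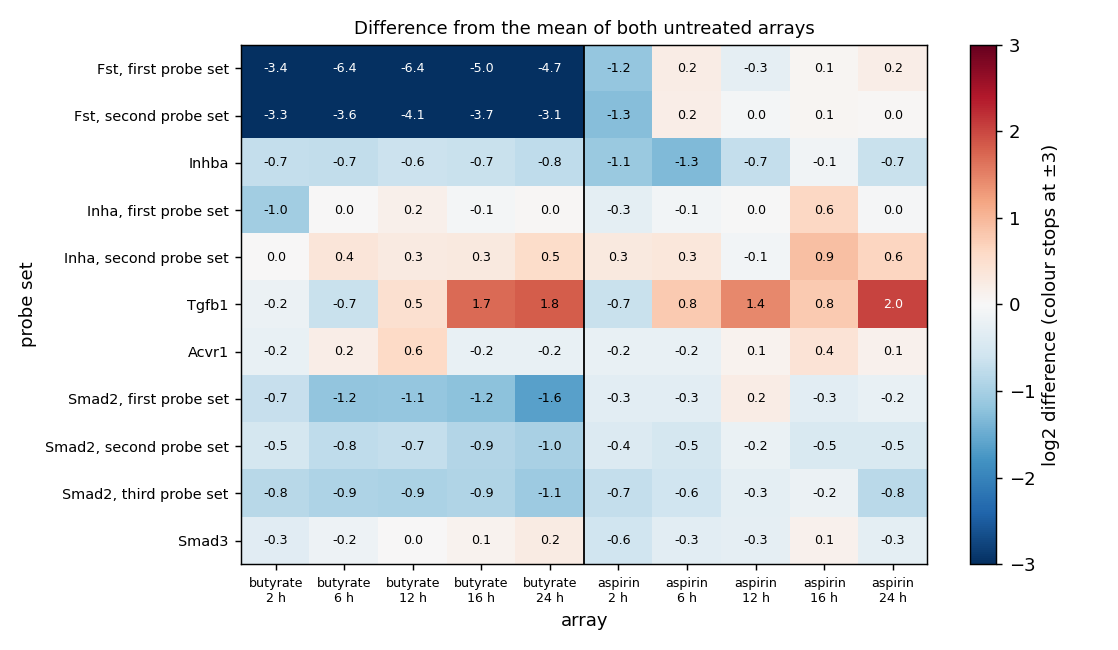
Log2 difference of each treated array from the mean of both untreated arrays for the 11 tested probe sets (colour, limited at 3 either way, with the value printed), butyrate arrays on the left and aspirin arrays on the right, each by hour. The rows of Fst (-6.38 to -3.11) and Smad2 (-1.63 to -0.52) are negative at all 5 butyrate hours, while Tgfb1 is positive at the later hours of both drugs.

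Inhba encodes the beta A subunit of activin A, the ligand that follistatin binds. Its intensity was 512.1, 503.0, 537.0, 527.5 and 494.4 over the butyrate hours. It was 386.4, 335.1, 511.0, 788.8 and 532.8 over the aspirin hours, and 736.8 and 962.9 in untreated cells at 2 and 24 h. All 5 butyrate arrays and 4 of the 5 aspirin arrays lay below both untreated arrays, and the exception was aspirin at 16 h. The butyrate values were nearly level over the hours, with an SD of 0.05 on the log2 scale against 0.48 with aspirin (n = 5 each). The mean log2 difference of butyrate from untreated was -0.71 ± 0.32. That of aspirin was -0.79 ± 0.32 and did not pass (limma, adjusted p = 0.406), although its unadjusted p was 0.0288. Both comparisons share the untreated arrays.

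Inha encodes the alpha subunit, found in inhibins and not in activins. Its first probe set read 545.3, 1125.7, 1241.3, 1076.1 and 1139.5 with butyrate, 909.8, 1053.0, 1114.2, 1703.7 and 1094.7 with aspirin, and 1178.2 and 1054.8 untreated. Apart from butyrate at 2 h, the lowest, and aspirin at 16 h, the highest, the groups overlapped. Its second probe set read 546.7, 697.8, 655.2, 668.1 and 793.8 with butyrate, 671.0, 691.7, 515.7, 1011.6 and 852.3 with aspirin, and 568.7 and 520.3 untreated. Here too aspirin at 16 h was highest, and the butyrate and untreated ranges met. The mean log2 differences from untreated were -0.18 ± 0.33 and 0.30 ± 0.29 with butyrate. With aspirin they were 0.04 ± 0.33 (limma, adjusted p = 1) and 0.42 ± 0.29 (adjusted p = 0.640). The slope of the first probe set over the butyrate hours, 0.29 ± 0.10 per doubling, did not pass (limma, adjusted p = 0.131) and was -0.01 without the 2 h array; that of the second was 0.12 ± 0.10 (adjusted p = 0.560).

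Tgfb1, the gene of the ligand TGF-beta 1, was at or near the floor early in each series. Its intensity was 128.5, 38.0, 201.5, 468.9 and 509.5 over the butyrate hours and -185.4, 249.6, 392.9, 249.1 and 593.7 over the aspirin hours. In untreated cells it was -63.9 at 2 h and 230.6 at 24 h. The highest value of each series was thus at 24 h. Set against untreated cells at 24 h, Tgfb1 at that hour was 2.21-fold higher with butyrate and 2.57-fold higher with aspirin, on 1 array each and without a test. The slopes were 0.63 ± 0.20 log2 units per doubling of the hours with butyrate (limma, adjusted p = 0.102) and 0.66 ± 0.20 with aspirin (adjusted p = 0.125), and neither passed. With a floor of 4.2 the aspirin slope was 1.86 and passed (adjusted p = 0.0285), and its only array at the 90.91 floor is that at 2 h. The untreated arrays also differed in this direction, by 1.34 from 2 to 24 h, so the mean differences from untreated, 0.63 ± 0.75 with butyrate and 0.87 ± 0.75 with aspirin (limma, adjusted p = 0.739), had wide errors. The first of these was -0.04 without the untreated 2 h array.

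**Figure D3:**
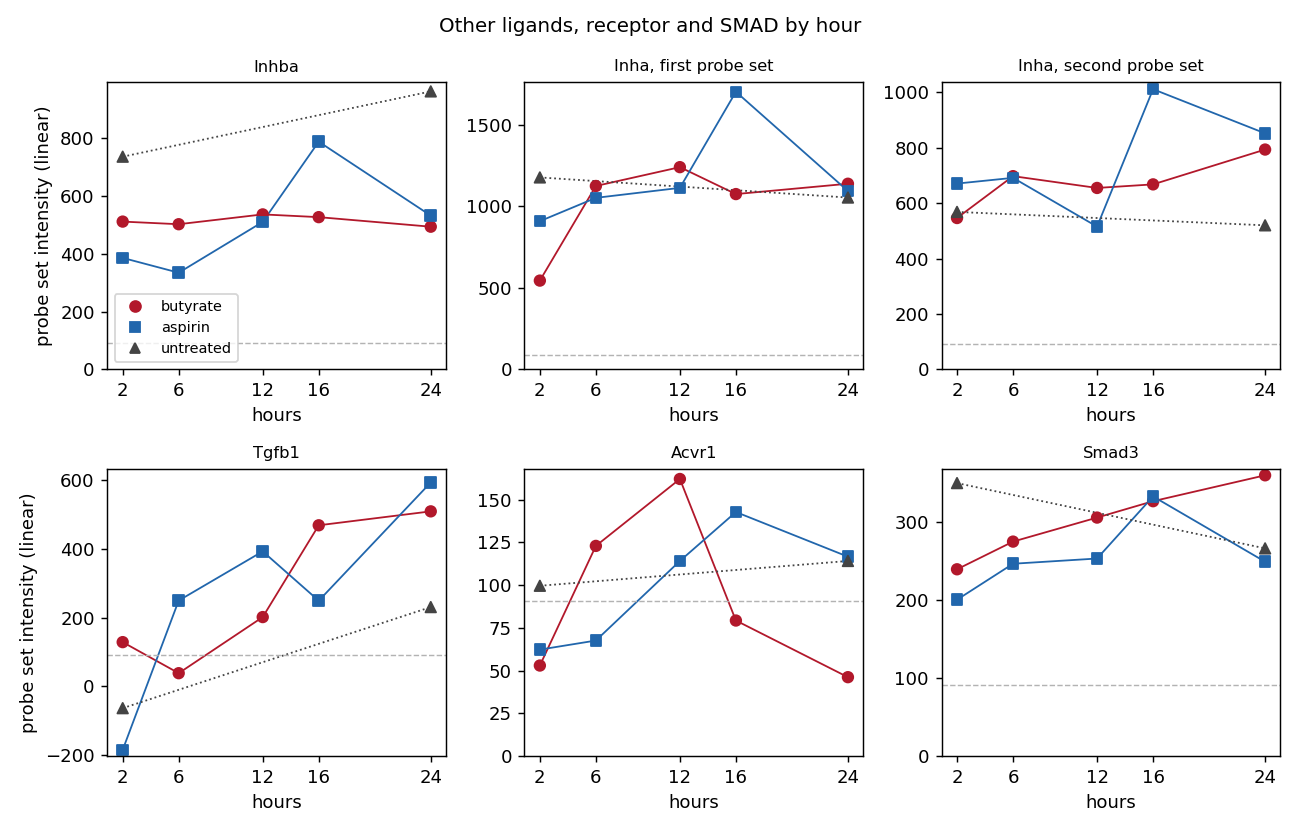
Intensity (linear axis) by hour for Inhba, both Inha probe sets, Tgfb1, Acvr1 and Smad3, 1 point per array for butyrate (circles), aspirin (squares) and untreated cells (triangles); the dashed line is the floor of 90.91. All 5 butyrate points of Inhba lie below both untreated points, and Acvr1 and the early Tgfb1 points lie around the floor.

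Of the receptors among the 9 members, only Acvr1 had a probe set, a type I receptor that also serves BMPs. It read 53.0, 122.9, 162.0, 79.3 and 46.2 with butyrate, 62.3, 67.6, 114.1, 142.7 and 116.6 with aspirin, and 99.6 and 114.1 untreated. With 3 butyrate and 2 aspirin arrays at the floor and the highest value at 162.0, no order can be read from these levels.

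Smad2, which encodes one of the SMADs activated by activin and TGF-beta receptors, was lower with butyrate on all 3 of its probe sets. The first read 1055.3, 744.2, 766.2, 728.5 and 548.3 over the butyrate hours, 1374.3, 1356.1, 1981.5, 1373.2 and 1446.7 over the aspirin hours, and 1863.4 and 1549.3 in untreated cells. The second, drawn from the same transcript record, read 935.9, 796.8, 819.9, 731.7 and 680.8 with butyrate, 1009.4, 939.0, 1173.3, 975.6 and 977.4 with aspirin, and 1427.0 and 1265.9 untreated. The third, from another record, read 383.1, 359.0, 352.8, 361.4 and 317.4 with butyrate, 413.5, 447.1, 550.1, 603.6 and 386.3 with aspirin, and 772.3 and 594.8 untreated. On each of them every butyrate array lay below every aspirin and every untreated array, by a small margin from the nearest aspirin array on the second and on the third (935.9 against 939.0, and 383.1 against 386.3), and the lowest value was at 24 h of butyrate. At that hour the 3 stood at 32.3%, 50.7% and 46.8% of the untreated mean of log2 values.

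**Figure D4:**
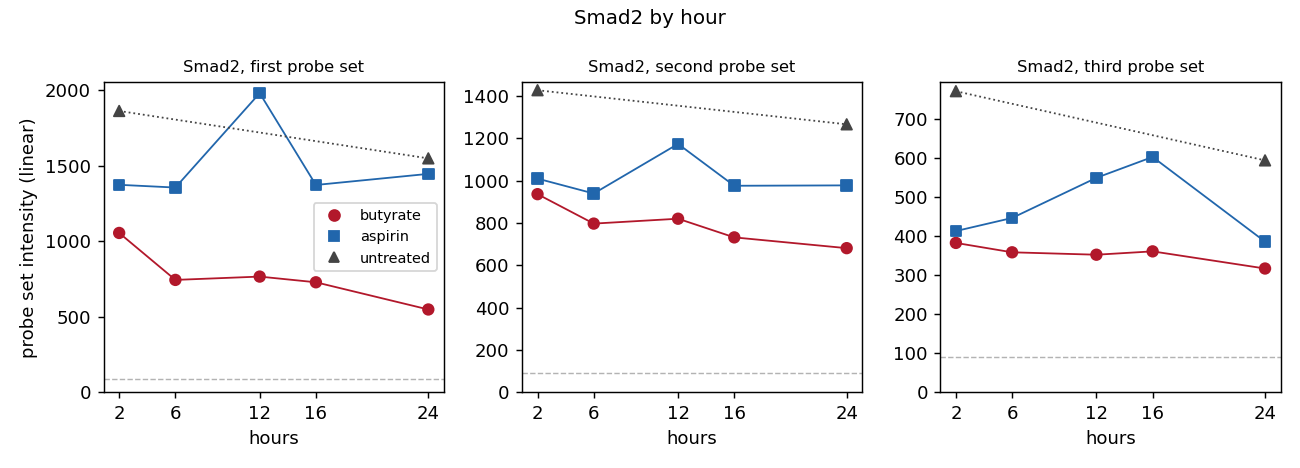
Intensity (linear axis, from 0) of the 3 Smad2 probe sets by hour, 1 point per array for butyrate (circles), aspirin (squares) and untreated cells (triangles); the dashed line is the floor of 90.91. The butyrate points are lowest at every hour on all 3, and on the second probe set the aspirin points lie between the butyrate and the untreated points.

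The mean log2 differences of butyrate from untreated were -1.18 ± 0.26, -0.77 ± 0.22 and -0.94 ± 0.28 on the first, the second and the third Smad2 probe set. With aspirin they were -0.19 ± 0.26 (limma, adjusted p = 0.862), -0.41 ± 0.22 (adjusted p = 0.520) and -0.52 ± 0.28 (adjusted p = 0.526), and none passed. On the second probe set all 5 aspirin arrays lay below both untreated arrays, which held for 7.78% of all tested probe sets. Smad3, the close relative of Smad2, read 239.7, 275.2, 306.0, 327.0 and 360.2 with butyrate, 200.7, 246.8, 253.5, 333.1 and 249.4 with aspirin, and 350.2 and 266.5 untreated. Its groups overlapped, and its mean log2 differences were -0.03 ± 0.30 with butyrate and -0.27 ± 0.30 with aspirin (limma, adjusted p = 0.821).

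Butyrate and aspirin were also set against each other hour by hour. On the first Fst probe set butyrate differed from aspirin by -2.21 log2 units at 2 h and -4.93 at 24 h, and on the second by -1.98 and -3.15. On the first Smad2 probe set the differences were -0.38 at 2 h and -1.40 at 24 h, and on the third they were -0.11 and -0.28. The mean log2 differences over the 5 hours were -4.99 ± 0.63 and -3.34 ± 0.32 for Fst, and -0.99 ± 0.19, -0.36 ± 0.13 and -0.42 ± 0.18 for Smad2. Butyrate was lower at all 5 hours on these 5 member probe sets and on 13% of all tested probe sets, and no other member kept 1 sign at all 5. The same 5 had every butyrate array below every aspirin array, as did 5.3% of all.

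Over the members as a whole, 5 of 11 probe sets, those of Fst and Smad2, were lower with butyrate than in untreated cells at an adjusted p of 0.05, and 0 were higher. Of all 6118 tested probe sets 3.92% were called lower and 11.7% in either direction. Fst had been selected on this difference, and its butyrate arrays also enter the comparison with aspirin. Its calls in both comparisons follow from that selection and are no evidence for it. The count was 3 with the hour as a block and 2 without the untreated 2 h array, when the Smad2 probe sets were no longer called (both Fst probe sets were). All butyrate arrays were below both untreated arrays on 6 of the 11, those 5 and Inhba, and on 13.2% of all probe sets. The median log2 difference was -0.71 over the 11 member probe sets and 0.00 over all tested probe sets. Since 5 of the 11 came from Smad2 and from Fst, the selected gene, this median does not weigh the genes evenly. The other probe sets stood at -0.71 (Inhba), -0.18 and 0.30 (Inha), 0.63 (Tgfb1), 0.02 (Acvr1) and -0.03 (Smad3). Against aspirin 3 of the 11 were lower and 0 higher, both of Fst and the first of Smad2, where 9.61% of all were called lower (25.2% in either direction). That count was 1 without the 16 h array of either drug and 2 without the 6, 12 or 24 h array of either. The first Smad2 probe set was called in only 2 of 10 such fits, the first Fst probe set in 8 and the second in 10. The count was 5 under either alternative scaling, where 9.55% (quantile normalization) and 22.8% (median centring) of all probe sets were called lower.

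**Figure D5:**
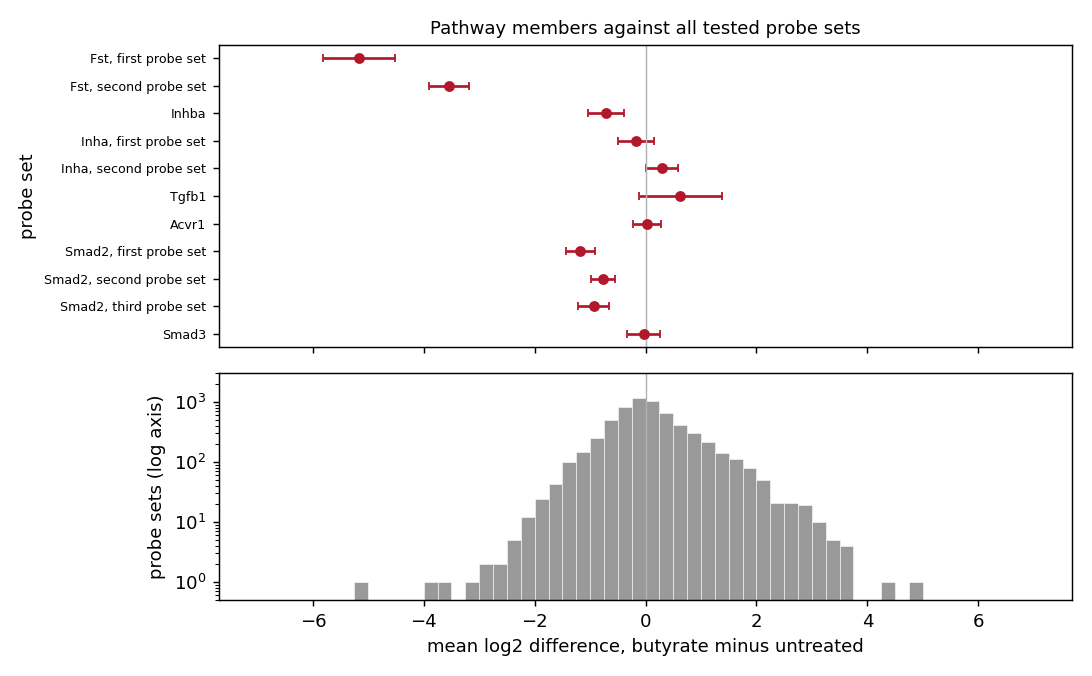
Top, mean log2 difference of butyrate from untreated cells with its standard error for each of the 11 tested member probe sets; bottom, the number of all 6118 tested probe sets (log axis) by the same difference in bins of 0.25. The probe sets of Fst, the gene selected on this difference, lie at the far low end of the distribution (-5.17 and -3.55). Smad2 and Inhba lie between -1.18 and -0.71.

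In the comparisons on which Fst had not been selected, no member passed. They are not all separate from that selection. Aspirin against untreated shares its untreated arrays, and the butyrate slope and the slope difference share its butyrate arrays. With aspirin against untreated 0 of 11 probe sets were called by limma, against 0.147% of all probe sets; at an unadjusted p under 0.05 there was 1 member, Inhba, and 656 of all 6118. The median log2 difference was -0.19 over the member probe sets and -0.04 over all. For the slope with butyrate 0 of 11 were called by limma (8.99% of all), with 3 at an unadjusted p under 0.05, against 1472 of all 6118. For the slope with aspirin 0 of 11 were called (1.65% of all), with 2 at an unadjusted p under 0.05, against 1204 of all. For the slope difference 0 of 11 were called (1.73% of all), with 1 at an unadjusted p under 0.05, against 1113 of all.

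Of 71 other genes of the pathway, 47 had a probe set that named them alone and 37 had one bright enough to be tested, each represented by its brightest. With butyrate against untreated 1 of the 37 fell and 0 rose, where 3.92% of all probe sets were called lower and 11.7% in either direction. The median log2 difference of the 37 was -0.02. The gene that fell was Id3, an inhibitor of basic helix-loop-helix factors and a known BMP and TGF-beta target. Id3 read 1591.3, 2470.1, 1277.9, 2476.8 and 2999.3 with butyrate, 6597.9, 4564.7, 6850.5, 7354.8 and 7232.6 with aspirin, and 5215.2 and 5821.5 untreated. Its difference was -1.42 ± 0.29 (limma, adjusted p = 0.00945), which missed the threshold without the untreated 2 h array (adjusted p = 0.0641) or the 24 h one (adjusted p = 0.0826). Its other probe set read -1.26 ± 0.22 (limma, adjusted p = 0.00442). With aspirin against untreated 0 of the 37 were called by limma, with 7 at an unadjusted p under 0.05, against 656 of all 6118 probe sets.

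Between butyrate and aspirin 2 of the 37 were higher and 2 lower with butyrate, where 25.2% of all probe sets were called in either direction. Id3 was lower, with a difference of -1.64 ± 0.23 (limma, adjusted p = 0.00916, and 0.0534 or 0.0529 without the butyrate or the aspirin array at 16 h). Bmpr1a, a type I BMP receptor with 4 of its 5 butyrate arrays at the floor, was lower, with a difference of -0.66 ± 0.13 (limma, adjusted p = 0.0208), and passed in 4 of 10 fits that each left out 1 array. Klf10, a zinc finger factor first known as a TGF-beta induced gene, was higher by 1.09 ± 0.14 (limma, adjusted p = 0.00767), at 1576.9 to 1947.4 with butyrate, against 706.3 to 954.5 with aspirin and 1433.4 and 691.0 in untreated cells. Bgn, the proteoglycan biglycan that binds TGF-beta, was higher by 2.36 ± 0.24 (limma, adjusted p = 0.0056), with 4 of 5 aspirin arrays and the untreated 24 h array at the floor. The other Bgn probe set had a difference of -0.08 (limma, adjusted p = 0.885), so the 2 disagreed. The probe sets of Id1, a relative of Id3 named after its values were seen, disagreed as well: the brightest gave -0.21 ± 0.12 (limma, adjusted p = 0.249) and the other, 0.65 ± 0.15, passed (adjusted p = 0.0282).

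Over the hours, 2 of the 37 were called for the butyrate slope (8.99% of all probe sets), 3 for the aspirin slope (1.65%) and 1 for the slope difference (1.73%). The BMP ligand gene Bmp6 (0.54 ± 0.13 per doubling, limma, adjusted p = 0.0437) and Junb (0.52 ± 0.09, adjusted p = 0.0148) rose with butyrate. Bmp6 was under the floor at 2 h of butyrate (81.0) and read 364.9 at 24 h, against 202.9 and 170.6 in untreated cells. Junb encodes an AP-1 factor that TGF-beta is known to induce, and it read 1895.1 after 2 h of butyrate and 7729.4 after 24 h. With aspirin it read 2604.5 at 2 h and 6238.0 at 24 h, but that slope did not pass (limma, 0.32 ± 0.09, adjusted p = 0.111). With aspirin the slopes of Cdkn2b (0.79 ± 0.07, limma, adjusted p = 0.0152), Smad1 (0.38 ± 0.07, adjusted p = 0.0385) and the activin subunit gene Inhbe (0.43 ± 0.08, adjusted p = 0.0475) were upward. Inhbe was under the floor at 2 and 6 h of aspirin (43.4 and 73.3). It read 245.4 at 24 h of aspirin, and 127.5 and 341.4 in untreated cells at 2 and 24 h. Smad1 read 112.9 at 2 h and 273.5 at 24 h of aspirin, and 330.7 and 165.3 untreated. Cdkn2b, a cyclin kinase inhibitor and TGF-beta target, read 358.5, 702.5, 1323.0, 1947.2 and 2397.6 over the aspirin hours, against 443.4, 607.5, 579.2, 727.9 and 914.7 over the butyrate hours, and 528.2 and 1021.0 untreated. Its slope with butyrate was lower than that with aspirin by the test of the difference (limma, -0.54 ± 0.10, adjusted p = 0.0448), which passed in 1 of 10 fits that each left out 1 array. Its aspirin slope passed in all 10 such fits, those of Smad1 and Inhbe in 1 of 10 each, that of Bmp6 in 3 and that of Junb in 7, where the lost fits of Junb were those without butyrate at 2, 16 or 24 h. The activin receptor gene Acvr2b, also named after its values were seen, had an aspirin slope of 0.14 ± 0.09 on its brightest probe set (limma, adjusted p = 0.411), while on another it was 0.68 ± 0.11 and passed (adjusted p = 0.0269). The second Junb probe set missed the threshold narrowly with butyrate (limma, 0.49 ± 0.13, adjusted p = 0.0545).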

How the data were processed

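Gene expression was measured on 12 one-colour oligonucleotide arrays of CC531 cells, 1 for each drug and hour. The deposited values are linear intensities per probe set, already scaled by the authors (trimmed array means of 1001.5 to 1002.1), with 21.5% to 25.5% negative per array; their software and background step are not stated in the labels or files. The number of arrays limits the precision. Of 8799 probe sets 59 controls were left out. The floor was 90.91, the absolute value of the 10th percentile of the signed intensities. Values under the floor were raised to it, log2 was taken, and probe sets below the 30th percentile of mean log2 were dropped, which left 6118. Genes came from the platform annotation, which named 1 gene for 7006 probe sets, several for 308 and none for 1426.

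Tests used limma 3.58.1 (R 4.3.3; lmFit and eBayes with trend), with Benjamini-Hochberg adjustment over all 6118 and a threshold of 0.05. Drugs were compared with untreated cells over all 12 arrays, and with each other with the hour as a block, since the labels give the same hours to both drugs. Slopes were fitted on log2 hours over the 10 drug arrays. The code was tested on simulated data. The members and lists were chosen with earlier results of these data known. Named are every member, each other pathway gene whose brightest probe set passed the threshold in any comparison, and the 5 genes most correlated with Fst. Alternatives changed the floor, filter, scaling, trend and block, and left out each array in turn.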

Additional observations from a re-analysis of the deposited data

Results flagged for a closer look

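In this paragraph gaps and ranges are of log2 values, while the intensities given are linear. The second Fst probe set read 2020.6 at 2 h of aspirin, and the gap to the next lowest aspirin array was 0.838 of the range of the 5 aspirin arrays. The first Inha probe set read 545.3 at 2 h of butyrate, with a gap of 0.826 of the range of the 5 butyrate arrays. The first Smad2 probe set read 1981.5 at 12 h of aspirin, with a gap of 0.829 of the range of the 5 aspirin arrays. Each gap is above Dixon's critical value for 5 arrays, so these arrays stood apart from the others of their drug. Of 22 such groups 3 held one. For replicate arrays chance alone gives about 1 in 20, but the arrays of a drug differ in hour. Several of the groups are also probe sets of the same gene, so no excess can be read from 3 of 22. The slope of Cdkn2b differed between the drugs by -0.54 ± 0.10 (butyrate minus aspirin, limma, adjusted p = 0.0448).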

How the results depend on the processing

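Of 808 values for single genes under the alternatives, 694 kept their direction and side of the threshold, 92 lost the call, 5 gained it and 17 changed direction. The 808 include many values of results not called as reported, which had no call to lose. The share of calls lost is therefore larger than 92 of 808. The number of members called lower with butyrate than untreated was 5, and 3 with the hour as a replicate block. Leaving out 1 array gave 2 to 5: 2 without untreated 2 h and 3 without butyrate 6, 12 or 16 h. Against aspirin it was 3, and 5 with quantile normalization and with median centring; leaving out 1 array gave 1 to 3, and the first Smad2 call held in 2 of 10 such fits. For the aspirin slope it was 0, and 1 with the lower floor. Without any 1 array the butyrate minus untreated difference of Fst ran from -5.62 to -4.87 and from -3.66 to -3.42 on its probe sets. Fst had been selected on this difference, so these ranges are a description and lend it no support.

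With the hour as a replicate block, aspirin minus untreated turned to 0.23 on the first Fst and to -0.22 on the first Inha probe set. Leaving out 1 array also turned some signs. Butyrate minus untreated then ran from -0.043 to 1.30 for Tgfb1, -0.23 to 0.16 for Smad3 and -0.26 to 0.037 for the first Inha probe set. Aspirin minus untreated ran from -0.29 to 0.061 and -0.31 to 0.058 for the Fst probe sets and -0.10 to 0.13 for the first Inha. Butyrate slopes ran from -0.70 to 0.90 and -0.22 to 0.20 for Fst and -0.0090 to 0.36 for the first Inha. Aspirin slopes of Fst ran from -0.0093 to 0.39 and -0.074 to 0.43, and slope differences from -1.03 to 0.57 and -0.56 to 0.028. The cause was not tested.

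Over all probe sets, butyrate against untreated gave 716 calls, 317 to 699 under other settings and 310 to 1166 without 1 array. Aspirin against untreated gave 9, 0 to 13 and 1 to 306. Butyrate against aspirin gave 1540, 681 to 1949 and 241 to 1645. The butyrate slope gave 550, 318 to 687 and 81 to 541, the aspirin slope 101, 53 to 282 and 6 to 231, and the slope difference 106, 37 to 109 and 3 to 119. Median centring moved the median difference of all probe sets to -0.14 for butyrate against untreated (0.00 as reported), 0.13 for aspirin against untreated (-0.04) and -0.22 for butyrate against aspirin (0.10). Of the calls between butyrate and aspirin 61.8% were higher, 52.2% with quantile normalization and 28.5% with median centring. With 2 untreated arrays, 1 of them sets much of each difference from untreated, and signals near the floor carry no order.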

Other observations

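The probe sets of a gene did not track each other equally over the 12 arrays. Pearson's r of the log2 values was 0.974 for the 2 Fst probe sets, 0.923, 0.819 and 0.894 for the pairs of Smad2 probe sets (the first with the second, the first with the third, the second with the third) and 0.549 for the 2 Inha probe sets. Each is given as a description, since the arrays share their treatments.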
